A study of Homo sapiens with 4 samples.

Results

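Genes spread over very long stretches of the genome were examined in breast cancer cells depleted of SNRNP40, a spliceosomal protein that belongs to the U5 particle. Members were gene symbols on chromosomes 1 to 22 with a transcript whose listed locus spanned at least 300 kb and a summed expression of at least 1 FPKM, averaged over both conditions. FPKM is a fragment count scaled to the length of the transcript and to the number of mapped fragments, and it was summed over all transcripts listed for a symbol. There were 418 members among 11923 expressed genes, and 23217 symbols in all. The members were chosen by the listed span and by the expression level, so neither is a finding. A further 709 symbols had a locus of 300 kb or more but a mean below 1 FPKM, of which 243 were listed at 0 in both conditions.

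The cells were LV-M100, a single clonal subline of MDA-MB-231, a human triple-negative breast cancer cell line. 2 libraries came from cells given a control siRNA, NC1 in replicate 1 and the BLOCK-iT Fluorescent Oligo in replicate 2. The other 2 libraries came from cells given SNRNP40 siRNA #1 or #2, and RNA was taken 48 hours after transfection in all 4. Total RNA was depleted of ribosomal RNA before ScriptSeq v2 libraries were made. The siRNA and the replicate number are the same thing in each condition, so off-target effects of a single siRNA and replicate spread cannot be told apart.

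The deposited table holds 1 pooled FPKM per transcript and condition. No value therefore has a replicate error, the depth behind it is unknown, and no test was run on these values. All differences below are differences between 2 pooled values. A gene is called higher or lower with SNRNP40 siRNA where the log2 ratio of its summed FPKM, SNRNP40 siRNA over control siRNA, is at least 0.5 or is -0.5 or less, a 1.41-fold difference. In bulk RNA, fewer cells that express a gene and less RNA per cell cannot be told apart.

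SNRNP40 itself stood at 40.4 FPKM with control siRNA and 6.12 FPKM with SNRNP40 siRNA. Of the MDA-MB-231 markers, VIM (750 and 733 FPKM), CD44 (116 and 141), AXL (125 and 115) and CAV1 (285 and 198) were abundant in both conditions. ESR1, PGR and CDH1 were below 0.1 FPKM, GATA3 was at 1.32 and 1.18 FPKM, and EPCAM, a marker chosen as low or absent, was present at 10.6 and 10.0 FPKM.

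A long gene is mostly intron. Introns are removed largely while RNA polymerase is still transcribing, so in a gene of this length the start and the end of an intron can be made many minutes apart. The U5 particle takes part in holding the exons on either side of the intron together for ligation. Long genes are known for their roles in the nervous system, cell adhesion and the cytoskeleton, and several lie at common fragile sites, which break when DNA replication is slowed.

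The rule took more than long genes. The listed locus is the interval of a whole assembled locus, which its genes share, so short genes inside a long locus were taken as well. By their own annotated span in GENCODE release 44 (lifted to GRCh37, the build of the deposited coordinates), 283 members spanned 300 kb or more and are called long genes here. Another 104 were shorter genes inside a long locus, and 31 symbols could not be matched to the annotation. Of the matched members, 358 were found by their current symbol and 29 by an older one. The 418 members lay in 328 loci, of which 56 held 2 or more of them. The locus with the most members, 9, held a cluster of bitter taste receptor genes on chromosome 12. Conversely, 55 expressed genes with an annotated span of 300 kb or more were not members, because their listed locus was shorter.

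Of the long genes, 282 were protein-coding and 1, PVT1, was a long non-coding RNA. Their median span was 431.4 kb, from 301.2 kb to 1553.1 kb in PDE4D, against a median of 32.2 kb in the protein-coding genes that were not members. Exons made up a median of 1.37% of a long gene and 10.3% of another protein-coding gene. The annotated transcript of a long gene had a median of 19 exons and 6322 spliced bases, and other protein-coding genes had a median of 9 exons and 3283 bases. The longest intron of a long gene had a median length of 124.6 kb, and in 191 of the 283 it reached 100 kb. It was the first intron in 84 long genes, the second in 53 and the third in 30. Introns were read from the annotation and were not measured in these cells.

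The ends of these longest introns are shown for 3 of the long genes with the largest falls and 3 of those with the largest rises, chosen so that the intron lies between coding exons, because these are the sites that the spliceosome must pair over the longest distance. Exon bases are in capitals, intron bases in lower case, and all are written 5′ to 3′ on the strand of the gene from GRCh37. The 5′ splice sites follow.
CACNA2D1, minus strand, chr7:81964439-81964456: CTGGTGgtgagtttaaat
SORCS2, plus strand, chr4:7194848-7194865: AGCAGCgtaagtgacctc
NCAM2, plus strand, chr21:22370931-22370948: GGCAAGgtaggagtgtgg
PDZD2, plus strand, chr5:31799826-31799843: GGCCAGgtaagtaggggg
TMTC2, plus strand, chr12:83081443-83081460: TGACAGgtaaggggccga
IQCJ-SCHIP1, plus strand, chr3:158991667-158991684: GACAGTgtaagttttaca

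The 3′ splice sites of the same introns follow. The introns are 164.5 kb long in CACNA2D1, 203.2 kb in SORCS2, 282 kb in NCAM2, 183.4 kb in PDZD2, 169.3 kb in TMTC2 and 490.6 kb in IQCJ-SCHIP1.
CACNA2D1, minus strand, chr7:81799920-81799945: atttattgtttgtttttcagCGCCTG
SORCS2, plus strand, chr4:7397995-7398020: actttctgttaacaccacagGTGATC
NCAM2, plus strand, chr21:22652878-22652903: gtttcccaattttttttcagCTCTTC
PDZD2, plus strand, chr5:31983241-31983266: cacctctctgtctgttgcagTTACCT
TMTC2, plus strand, chr12:83250769-83250794: tttaacgttttgttttttagCCGTGC
IQCJ-SCHIP1, plus strand, chr3:159482212-159482237: tctctacctcctccccctagGATTAC

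The letters at the start of the longest intron differed in frequency between long genes and the rest. The longest intron began with GT and ended with AG in 280 of 282 protein-coding long genes (99.3%) and in 99.4% of 10099 other protein-coding genes. It began with GTAAG in 134 long genes (47.5%), against 2770 other genes (27.4%). It began with GTGAG, a different start that cannot overlap with GTAAG, in 57 long genes (20.2%) and in 34.1% of other genes. The last base of the exon before it was G in 78.0% of long genes and 85.5% of others. The letters were searched only at these fixed positions and on the strand of the gene.

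Across all expressed protein-coding genes the share that began with GTAAG moved with span. It was 17.5% in genes under 5 kb, 28.1% at 20 to 50 kb, 37.3% at 200 to 300 kb, 49.3% at 300 to 500 kb and 39.4% in genes of 500 kb or more, where only 104 genes were counted. The GC content of the longest intron moved along with it, from a median of 53.6% in genes under 5 kb to 38.1% in those of 500 kb or more. The part of base composition in the letters was not tested. Within long genes the median log2 ratio was -0.033 for those beginning with GTAAG, -0.038 for GTGAG and -0.045 for any other start. Ratios of -0.5 or less were seen in 8 of 134 long genes beginning with GTAAG (5.97%), 7 of 57 with GTGAG (12.3%) and 6 of 91 with another start (6.59%), against 5.08% of all genes tested. Among other protein-coding genes the shares were 4.04%, 4.47% and 5.07%.

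With SNRNP40 siRNA the expression of the members as a group was close to that with control siRNA. The median log2 ratio of the 418 members was -0.036, with quartiles of -0.20 and 0.15, and the median of the 11500 other genes was 0.0053. Of the members, 28 were lower (6.70%) and 16 were higher (3.83%), while over all genes tested 5.08% were lower and 5.25% were higher. The share of lower members was thus near the background and the share of higher members was below it. Ratios above 0 were seen in 187 members (44.7%), against 50.7% of all genes. 6 members were past a 2-fold difference, 3 in each direction, and the background at that threshold was 1.47%. Of the genes tested, 5 non-members listed at 0 in 1 condition had no ratio and are not in these shares.

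**Figure D1:**
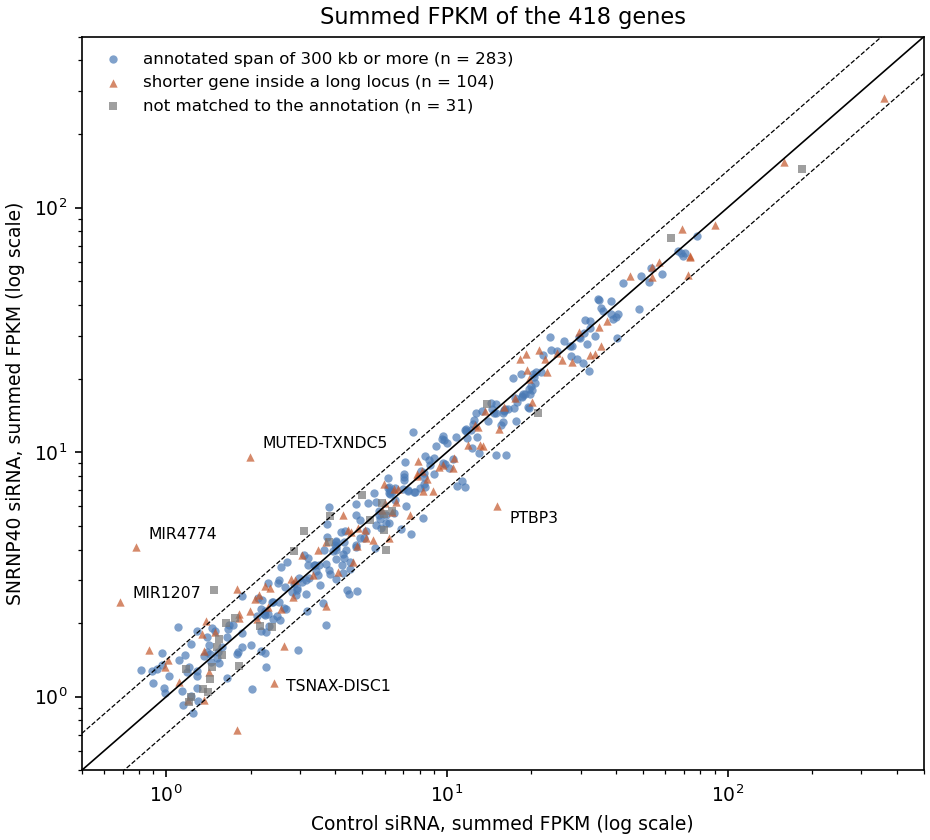
Summed FPKM of each of the 418 members with control siRNA (horizontal axis) and SNRNP40 siRNA (vertical axis), both on log scales, as 1 pooled value per condition with no replicate error. The solid line marks equal values and the dashed lines mark log2 ratios of 0.5 and -0.5. The 5 labelled genes lie past a 2-fold difference, and none of them is among the 283 genes with an annotated span of 300 kb or more.

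Among the 283 long genes the excess of lower over higher calls was larger. 21 were lower (7.42%) and 7 were higher (2.47%), and their median log2 ratio was -0.037. None was past a 2-fold difference in either direction. The 104 shorter genes in long loci held 5 lower genes (4.81%) and 6 higher ones (5.77%), near the 5.08% and 5.25% of all genes. Their median was -0.022, and they held all 6 of the members past a 2-fold difference. The 31 unmatched symbols held 2 lower (6.45%) and 3 higher genes (9.68%).

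Long genes were expressed at lower levels than other genes, with a median of 5.66 FPKM against 10.97 FPKM, and the share of genes past the threshold depended on the level. When other genes were weighted to the FPKM bins of the long genes (edges at 1, 2, 5, 10, 20 and 50 FPKM), 6.15% of them were lower and 7.10% were higher. The 21 lower long genes thus stood beside 17.4 at the weighted share of other genes, and the 7 higher ones beside 20.1. Nearly all long genes are protein-coding. Against other protein-coding genes of all lengths, a set added with the values in view, the weighted shares were 5.85% lower and 6.12% higher, or 16.6 and 17.3 genes. Against protein-coding genes of 50 to 300 kb weighted in the same way, a set added with the values in view, the shares were 6.79% lower and 4.25% higher, or 19.2 and 12 genes. Unweighted, rises made up 2.47% of long genes, 2.90% of protein-coding genes of 50 to 100 kb, 3.22% at 100 to 200 kb and 1.82% at 200 to 300 kb. In the bin of 2 to 5 FPKM, 1 of 83 long genes was higher (1.2%), against 9.42% of other genes. In the bin of 5 to 10 FPKM, 6 of 57 long genes were lower (10.5%), against 4.61% of other genes. The gap in lower genes was not as wide at the levels below. At 1 to 2 FPKM, 5 of 50 long genes were lower and 5 were higher (10% each), against 11.7% and 16.2% of other genes. At 2 to 5 FPKM, 7 of 83 were lower (8.43%), against 7.17%. No long gene at 10 FPKM or more was higher. There, 2 of 49 were lower at 10 to 20 FPKM and 1 of 35 at 20 to 50 FPKM, and the 9 at 50 FPKM or more all lay between log2 ratios of -0.13 and 0.093.

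**Figure D2:**
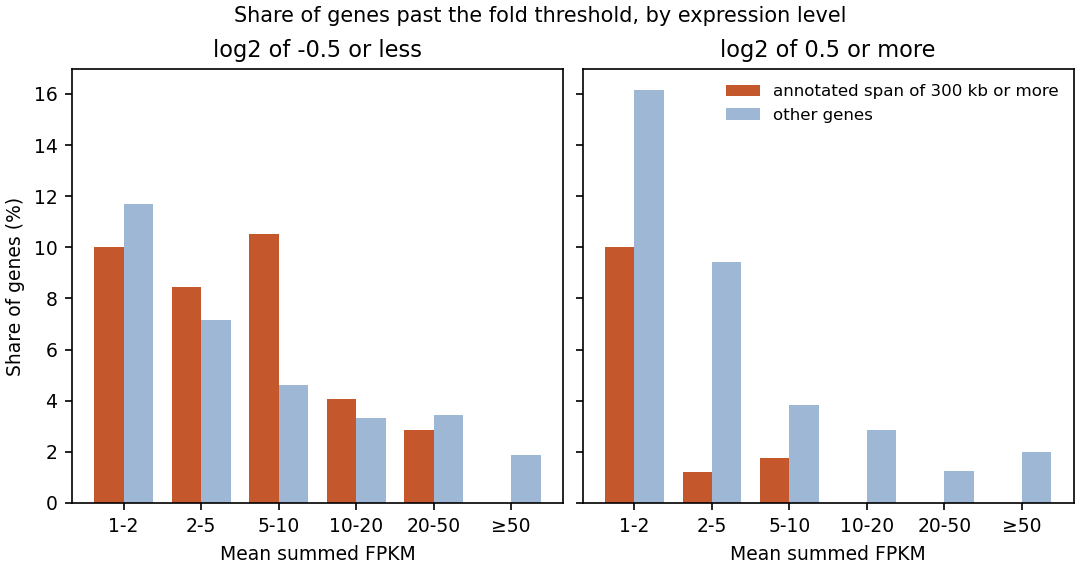
Share of genes, in percent, with a log2 ratio of -0.5 or less (left) and of 0.5 or more (right), by mean summed FPKM, for the 283 genes with an annotated span of 300 kb or more and for the 11500 non-members. Bars have no error because each condition is 1 pooled value; the bins hold 50, 83, 57, 49, 35 and 9 long genes. Long genes show a lower share of rises than the non-members, which are of all lengths, in every bin.

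The median of the members lay 0.051 below that of other genes of the same FPKM bin on the log2 scale. The difference was smaller against longer genes. Against other protein-coding genes spanning 50 to 300 kb alone, a comparison added with the values in view, it was -0.0086. Over protein-coding genes the median log2 ratio was 0.078 under 5 kb, 0.049 at 5 to 10 kb, 0.030 at 10 to 20 kb and -0.010 at 20 to 50 kb. It was -0.035 at 50 to 100 kb, -0.038 at 100 to 200 kb, -0.023 at 200 to 300 kb, -0.041 at 300 to 500 kb and -0.027 at 500 kb or more. Beyond 50 kb, greater length was thus not accompanied by a lower median. Across 10680 protein-coding genes, Spearman's rank correlation between the ratio and span was -0.14, and within the 283 long genes it was -0.021. These are correlations across genes, which share the same 4 libraries and are not independent replicates.

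**Figure D3:**
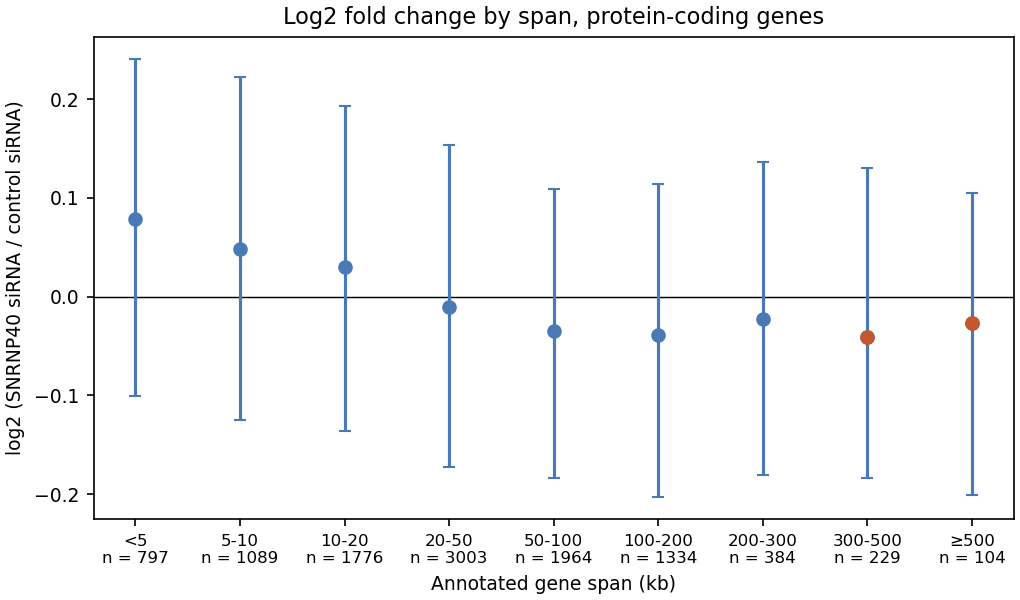
Log2 ratio of summed FPKM, SNRNP40 siRNA over control siRNA, for expressed protein-coding genes by annotated span in kb. Points are medians and bars run from the lower to the upper quartile of the genes in a class and are not an error; the classes of 300 kb or more are in orange. The median falls from 0.078 to -0.035 between the shortest genes and those of 50 to 100 kb and stays between -0.041 and -0.023 beyond.

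Within the long genes, the length of the longest intron was not accompanied by a trend. 3 equal groups by longest intron, from short to long, had median log2 ratios of -0.034, -0.055 and -0.024, and the rank correlation was 0.0043. The group with the longest introns held 9 of the 21 lower genes (9.47% of the group) and 4 of the 7 higher ones (4.21%). Over all genes tested 5.08% were lower and 5.25% were higher. The median level of this group was 3.84 FPKM, against 6.47 FPKM in the group with the shortest introns. By spliced length, 3 equal groups had medians of -0.078, -0.033 and 0.000084, the long genes with the shortest mature transcripts being the lowest. The rank correlation with spliced length was 0.11 within the long genes. Over 10680 protein-coding genes it had the opposite sign, at -0.13. The median GC content of the longest intron was 39.2%, and 3 groups of 94 genes each by GC content held 8, 5 and 8 lower genes. Of all long genes 7.42% were lower.

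The largest falls among the long genes were in weakly expressed genes. CACNA2D1, an auxiliary subunit of voltage-gated calcium channels with an annotated span of 497.5 kb and 39 exons, stood at 2.95 FPKM with control siRNA and 1.55 FPKM with SNRNP40 siRNA. SORCS2, a sorting receptor of 550.3 kb, stood at 3.69 and 1.96 FPKM. NCAM2, a neural cell adhesion molecule of 544.9 kb, stood at 2.02 and 1.07 FPKM. The log2 ratios of these genes were -0.93, -0.91 and -0.91, and the control value was 1.90-fold, 1.88-fold and 1.88-fold the other. ARL15, a small GTPase of the ARF-like family with only 5 exons in 426.6 kb, stood at 4.77 and 2.70 FPKM. ANKS1B, which encodes a scaffold protein of synapses and spans 1258.5 kb, stood at 2.26 and 1.32 FPKM.

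The other lower long genes included some at higher levels. LTBP1, which holds latent TGF-beta in the matrix, was the most abundant of the 21 at 32.1 and 21.6 FPKM. GULP1, an adaptor in the engulfment of dead cells, stood at 16.2 and 9.78 FPKM. DLC1, a GTPase-activating protein, stood at 15.0 and 9.71 FPKM. PDE4D, a phosphodiesterase that breaks down cyclic AMP and the long gene with the greatest annotated span, stood at 11.3 and 7.63 FPKM. STAU2, a protein that binds double-stranded RNA, stood at 11.6 and 7.22 FPKM, and RNGTT, the enzyme that caps mRNA, at 8.19 and 5.39 FPKM. These values put the falls of the long genes between 1.41-fold in TBC1D5 and 1.90-fold in CACNA2D1.

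The 7 higher long genes were led by SAMD12, at 1.10 FPKM with control siRNA and 1.92 FPKM with SNRNP40 siRNA, although its most expressed transcript alone gave a log2 ratio of 0.19, inside the threshold. NRG1, a ligand of the ErbB receptors that spans 1216.4 kb, was the most abundant of them at 7.60 and 12.1 FPKM, a 1.60-fold rise. IQCJ-SCHIP1, a read-through of neighbouring genes, stood at 3.82 and 5.94 FPKM. The remaining genes were PDZD2, a protein with PDZ domains, at 0.811 and 1.28 FPKM, TMTC2, an enzyme that adds mannose to proteins, at 0.967 and 1.52 FPKM, CDH23, a cadherin of inner-ear hair cells, at 1.29 and 1.86 FPKM, and CAMKMT, a methyltransferase of calmodulin, at 0.888 and 1.27 FPKM. Except in NRG1 and IQCJ-SCHIP1, all values of the higher long genes were below 2 FPKM.

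**Figure D4:**
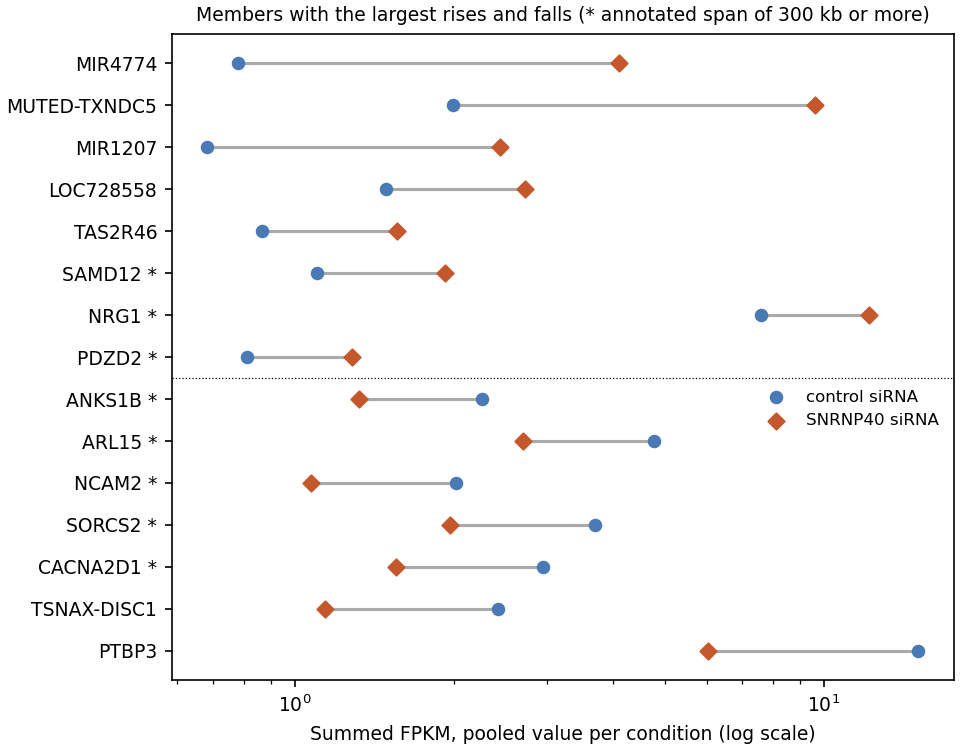
Summed FPKM with control siRNA (blue circles) and SNRNP40 siRNA (orange diamonds) on a log axis for the 8 members with the largest rises and 7 of the 8 with the largest falls, 1 pooled value per condition. Asterisks mark genes with an annotated span of 300 kb or more. The 5 largest rises and the largest fall are in members without an asterisk.

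Lower members past a 2-fold difference included PTBP3 and the read-through gene TSNAX-DISC1. PTBP3, a relative of the splicing regulator PTBP1, stood at 15.1 FPKM with control siRNA and 6.02 FPKM with SNRNP40 siRNA, 2.50-fold lower. It spans 115.9 kb and was a member only through a 353.7 kb locus it shares with SUSD1, whose values were 15.9 and 15.3 FPKM. TSNAX-DISC1 stood at 2.42 and 1.14 FPKM, while TSNAX stood at 37.04 and 34.4 FPKM and DISC1 at 2.49 and 2.91 FPKM. Fragments of a read-through transcript overlap those of its parent genes, so the split between them is uncertain.

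The higher members past a 2-fold difference were MIR4774, MIR1207 and the read-through gene MUTED-TXNDC5. MUTED-TXNDC5 stood at 1.99 and 9.59 FPKM, a 4.83-fold difference, while MUTED, part of a complex that forms lysosome-related organelles, stood at 24.6 and 25.5 FPKM. TXNDC5, a protein disulfide isomerase, stood at 159 and 153 FPKM. MIR4774 stood at 0.782 and 4.10 FPKM and lies inside the locus of CERS6, a ceramide synthase, at 5.08 and 4.47 FPKM. MIR1207 stood at 0.683 and 2.44 FPKM and lies inside the locus of PVT1, at 6.26 and 6.96 FPKM. Another microRNA gene among the members, MIR1260B, stood at 2.07 and 2.51 FPKM inside the locus of MAML2. These libraries were made from fragmented total RNA, so a value over a hairpin of under 100 bases does not measure the mature microRNA.

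The mature sequences of MIR4774 and MIR1260B, from RefSeq (GRCh38.p14), are shown with the seed, bases 2 to 8, in capitals.
hsa-miR-4774-5p: uCUGGUAUguaguagguaauaa
hsa-miR-4774-3p: aUUGCCUAacaugugccagaa
hsa-miR-1260b: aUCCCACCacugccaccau
No 2 of these seeds were the same.

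Small RNAs of the splicing machinery had the highest values of all members and were shorter genes or unmatched symbols. RNU4ATAC, the U4atac RNA of the minor spliceosome, stood at 362 FPKM with control siRNA and 280 FPKM with SNRNP40 siRNA inside the locus of CLASP1, which was at 11.8 and 11.4 FPKM. RNU5E-1, a variant of the U5 RNA, stood at 184 and 144 FPKM. Their log2 ratios were -0.37 and -0.35, inside the threshold. RNU4ATAC has an annotated span of 126 bases. Whether a value scaled to so short a length can be ranked against longer transcripts was not tested. RNU5E-1 has near-identical copies elsewhere in the genome and could not be matched to the annotation, so its locus is uncertain. TPR, of the nuclear pore basket, stood at 89.9 and 84.8 FPKM, and EXT1, which builds heparan sulfate and was the most abundant long gene, at 78.0 and 76.8 FPKM.

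The list of genes at common fragile sites held 12 members, all of them long genes, with a median log2 ratio of -0.071, against -0.036 for all members and 0.0041 for all genes tested. 1 was lower (8.33%, against 5.08% of all genes) and none was higher (against 5.25%). That was PDE4D, at -0.57. WWOX, an oxidoreductase with WW domains, stood at 4.53 and 3.31 FPKM, a log2 ratio of -0.45 that stayed inside the threshold. IMMP2L, a peptidase of the mitochondrial inner membrane, stood at 4.30 and 3.69 FPKM. PTPRG, a receptor tyrosine phosphatase, stood at 19.8 and 17.2 FPKM, and EXOC4, a subunit of the exocyst, at 39.0 and 35.1 FPKM. The canonical fragile-site genes FHIT, a hydrolase of dinucleoside polyphosphates, and PARK2, the ubiquitin ligase parkin, were weakly expressed, at 1.44 and 1.501 FPKM and at 1.36 and 1.47 FPKM. DPYD, the first enzyme of pyrimidine breakdown, GPHN, which anchors inhibitory receptors, LPP, MAD1L1 of the spindle checkpoint and NBEA had log2 ratios between -0.078 and 0.098.

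The functional lists are set beside the 5.08% of all genes that were lower and the 5.25% that were higher, and beside a median log2 ratio of 0.0041 over all genes. Of 49 members in cytoskeleton and small GTPase regulation, 3 were lower (6.12%) and none was higher, with a median log2 ratio of 0.063. The lower ones were FHOD3, a formin that assembles actin, at 7.42 and 4.64 FPKM, ARHGEF3, an exchange factor for small GTPases, at 10.9 and 7.28 FPKM, and TBC1D5, a GTPase-activating protein for Rab, at 6.88 and 4.86 FPKM. Of 16 members in adhesion, matrix and guidance, 2 were lower (12.5%) and none was higher, the median being -0.016. They were NCAM2 and CDH4, a classical cadherin at 2.24 and 1.51 FPKM. SLIT2, a guidance ligand, stood at 2.70 and 3.56 FPKM, inside the threshold. Of 40 members in kinase, phosphatase, receptor and second messenger signalling, CACNA2D1, LTBP1 and PDE4D were lower (7.5%) and NRG1 was higher (2.5%), with a median of -0.020.

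The list of transcription, chromatin and genome maintenance held 32 members with a median log2 ratio of -0.058. Only KLF12, a zinc finger transcription factor at 2.18 and 1.54 FPKM, was lower (3.13%, against 5.08% of all genes), and none was higher. The list of RNA binding, processing and translation held 13 members with a median of -0.14, and 3 of them, PTBP3, TSNAX-DISC1 and STAU2, were lower (23.1%). Of these only STAU2 is a long gene, which left 1 of 10 (10.0%), and the median of the 10 long genes on the list was -0.064. DCP2, the mRNA decapping enzyme, stood at 10.5 and 8.62 FPKM. Of 59 members in ubiquitin, membrane traffic, transport and metabolism, 5 were lower (8.47%) and 2 were higher (3.39%), with a median of -0.057. The lower ones included SORCS2, DENND1A, an exchange factor for Rab35, at 4.49 and 2.64 FPKM, FBXL17, a substrate receptor of a ubiquitin ligase, at 4.42 and 2.73 FPKM, and SLC39A11, a zinc transporter, at 3.62 and 2.41 FPKM. The other 211 members were on none of the functional lists, and 11 of them were lower (5.21%) and 13 higher (6.16%).

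Genes that share a locus did not always move together. STAU2 was lower, and LOC100128126 in the same locus stood at 3.11 and 4.75 FPKM, a log2 ratio of 0.61. PDE4D was lower, and PART1, a non-coding RNA in the same 1578619-base locus, stood at 1.98 and 2.25 FPKM. ANKS1B was lower, and APAF1, the scaffold of the apoptosome, stood at 8.91 and 6.96 FPKM in the same direction. SENP8, a protease of NEDD8, stood at 2.63 and 1.62 FPKM beside MYO9A at 10.6 and 9.44 FPKM. KIAA0754 stood at 21.2 and 14.5 FPKM within the locus of MACF1, the cytoskeletal crosslinker, at 69.1 and 63.4 FPKM. Strand was not stated for the counting, so fragments of overlapping and antisense genes may not have been told apart.

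The locus of the bitter taste receptor cluster on chromosome 12 held 9 members, and 2 of these were among the 16 higher members. Over all genes tested 5.25% were higher, and among other genes 16.2% at 1 to 2 FPKM and 9.42% at 2 to 5 FPKM. TAS2R46 stood at 0.867 and 1.56 FPKM and TAS2R30 at 1.78 and 2.77 FPKM. The neighbouring TAS2R14 stood at 1.37 and 0.973 FPKM and TAS2R31 at 2.84 and 2.56 FPKM. These intronless receptor genes are close copies of each other, so the values of single receptors are uncertain. LOC728558, an unmatched symbol in the locus of ENTPD1, had the largest ratio of the unmatched symbols, at 1.48 and 2.72 FPKM.

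Transcripts were also compared within genes. The members had 1207 listed transcripts, of which 558 had a mean of at least 1 FPKM. Of 232 members with 2 or more listed transcripts, the most expressed transcript differed between conditions in 45 (19.4%). The background over all such genes was 15.1%, and other genes weighted to the same numbers of transcripts stood at 16.9%. Where both leading transcripts had to have a mean of at least 1 FPKM, 27 members remained (11.6%), against a background of 11.1% and a weighted 12.5%. Among the 170 long genes with 2 or more transcripts the counts were 35 (20.6%) and 21 (12.4%), beside weighted shares of 17.2% and 12.6% in other genes. The stricter share was thus at the level of other genes.

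In 106 members at least 2 transcripts had a mean of 1 FPKM or more. The highest and lowest log2 ratio among such transcripts differed by at least 1 in 47 of these members (44.3%), against 43.5% of all such genes. In 22 members (20.8%) 1 transcript was past 0.5 and another past -0.5, against 20.3% of all such genes, and in 21 of the 22 the sum of the gene stayed inside the threshold. The fall of PDE4D was mostly in a single transcript, which stood at 4.31 FPKM with control siRNA and 1.32 FPKM with SNRNP40 siRNA, while another stood at 3.70 and 3.57 FPKM. In STAU2 both leading transcripts were lower, at 9.16 and 5.97 FPKM and at 2.10 and 0.477 FPKM. In NRG1 both leading transcripts were higher, at 5.88 and 9.10 FPKM and at 0.994 and 1.57 FPKM.

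The 5 members with the widest spread between transcripts all had a transcript near 0 in 1 condition. In LRRC16A, a regulator of actin capping protein, 1 transcript stood at 3.94 FPKM with control siRNA and 0.00084 with SNRNP40 siRNA, while the other stood at 0.00063 and 3.94 FPKM. Its sum was 3.94 FPKM in both conditions. In SYNE2, the nuclear envelope protein nesprin-2, a transcript went from 7.31 to 0.00047 FPKM while the leading one stood at 13.2 and 19.4 FPKM. PTBP3 had a transcript at 6.21 and 0.0027 FPKM and another at 5.42 and 4.80 FPKM, so that most of its fall was in the former. DCP2 had a transcript at 0.0002 and 3.27 FPKM, and SPECC1 had one at 4.72 and 0.0055 FPKM. Fragments shared by overlapping transcripts are assigned by a statistical model, and whether such switches between near 0 and several FPKM came from that assignment was not tested.

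**Figure D5:**
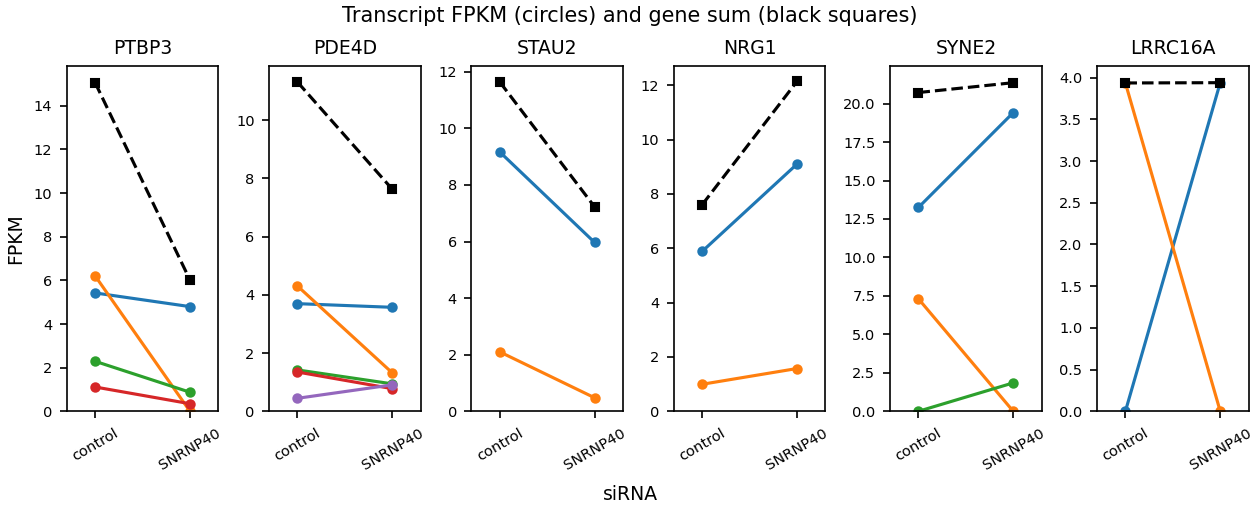
FPKM with control siRNA and SNRNP40 siRNA of the transcripts with a mean of at least 0.5 FPKM (coloured circles) in 6 members, each with its own linear axis from 0, and of the sum over all transcripts of the gene (black squares, dashed). In PTBP3 and PDE4D 1 transcript carries most of the fall, in STAU2 and NRG1 the leading transcripts move together, and in LRRC16A 2 transcripts exchange values while the sum stays at 3.94 FPKM.

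At the edge of the span threshold, the members MLL3 (301081 bases), SIPA1L3 (301141) and KIF16B (301331) had log2 ratios of 0.26, -0.14 and 0.17. NUBPL (299839 bases), JMJD1C and LOC84989 (both 299335), just outside, had log2 ratios of 0.29, -0.041 and -0.23. At the expression threshold, RALGPS1, PDE11A and PCLO, just inside at means of 1.01, 1.02 and 1.03 FPKM, had log2 ratios of 0.061, 0.34 and 0.15. HYDIN and KCNAB1, just outside at 0.989 and 0.969 FPKM, had log2 ratios of -0.27 and -0.49.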

How the data were processed

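RNA-seq of 4 libraries was analysed from 1 deposited table of transcripts. Per the submitters' processing notes, cutadapt 1.2.1 was used for trimming, TopHat2 2.0.8 for mapping to hg19, and Cufflinks and Cuffdiff 2.0.2 for transcripts and their levels. FPKM was deposited as 1 value per transcript and condition, with both libraries of a condition pooled. The table also holds the authors' log2 fold changes, p-values and q-values, which were not used. The annotation and the strand setting of the counting are not given in the sources used here.

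FPKM was summed over the transcripts of each symbol, and the log2 ratio was taken with no pseudocount. Genes with a mean summed FPKM of at least 1 were kept. Symbols were matched to GENCODE release 44 lifted to GRCh37; 94.7% of tested genes matched, by name or by an older symbol that named a single gene. The exons and introns are those of 1 canonical transcript per gene. 1 member, listed under a spreadsheet date (1-Mar), summed rows from 2 loci, on chromosomes 1 and 4, and 4 members had a transcript whose Cuffdiff status was FAIL; all were kept.

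The genes named are the 8 largest rises and 8 largest falls, the 5 highest by FPKM, the 5 longest loci, all fragile-site members, the 5 with the widest transcript spread, the 3 on either side of each threshold and, per functional list, those with the largest change. Others were named as the lower and higher long genes, genes of a shared locus or the taste receptors, and were chosen after their values were seen. Some genes that this rule names are not reported here. The members and lists were chosen with earlier results of these data known. Of the longest loci, MAGI2-AS3 stood at 4.27 and 5.53 FPKM. The software was samtools 1.23.1, pandas 2.3.3, numpy 2.4.6 and Python 3.11.15. The calculation of the ratios and binned differences was checked on simulated data. Those data had a larger shift of the members and less scatter than the real values. The check therefore does not show that a difference as small as that reported can be recovered.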

Additional observations from a re-analysis of the deposited data

How the results depend on the processing

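The median log2 ratio of the members was negative under every alternative run, from -0.054 with a minimum of 5 FPKM to -0.0086 with upper-quartile scaling, and the difference from other genes of the same FPKM bin ranged from -0.061 to -0.0086. Counts moved more. With a minimum of 5 FPKM, 220 members remained, 2 higher and 12 lower, and 19 with a changed leading transcript. With a minimum of 0.1 FPKM, 68 of 624 members were higher, 64 were lower and 71 changed their leading transcript. Lower members then no longer outnumbered higher ones. The shares of all genes past the threshold were not computed at these minimums, nor with the pseudocount or the most expressed transcript below. Among other genes at 1 to 2 FPKM, 16.2% were higher and 11.7% lower. With loci of 200 kb or more there were 827 members, 31 higher, 49 lower and 72 with a changed leading transcript; with 500 kb, 138, 4, 10 and 16. A pseudocount of 1 gave 6 higher and 18 lower, the most expressed transcript 32 and 44, and a log2 threshold of 1 gave 3 and 3. Of 338 tested genes with an annotated span of 300 kb or more, 9 were higher and 27 lower. Among members of 300 kb or more by annotation, an alternative added after seeing the data, 7 were higher (2.47%) and 21 lower (7.42%). Changing the span leaves the genes tested the same, and of these 5.25% were higher and 5.08% lower. The leading transcript changed in 15.1% of the tested genes with 2 or more listed transcripts. How many members had 2 or more transcripts at the other minimums and spans was not computed, so those counts give no share. Requiring 1 FPKM in both leading transcripts left 27 of 232 members with 2 or more transcripts (11.6%), against 11.1% of all such genes. Of 45 named members, none that was past the threshold changed sign under 5 alternatives. With the pseudocount, however, ANKS1B (-0.49), TAS2R46 (0.45), SAMD12 (0.48) and PDZD2 (0.33) were no longer past the threshold. With the most expressed transcript alone, PTBP3 (-0.18), PDE4D (-0.050) and SAMD12 (0.19) were no longer past it. In that setting MAD1L1 (0.073 to -0.86) and RALGPS1 (0.061 to -0.90), inside the threshold as sums, changed sign and passed it. DCP2 (-0.29 to -0.98), SYNE2 (0.044 to 0.55) and LRRC16A (0.0013 to 12.6) passed it with the same sign. GPHN, KIF16B and PDE11A changed sign inside it. In all, 16 moved by 0.1 or more on the log2 scale with the pseudocount and 14 with the most expressed transcript. The median of all genes was 0.0041, and the upper-quartile ratio was -0.027 on the log2 scale. Leaving out each replicate was not run, since the libraries of a condition are pooled. No paired analysis was possible because the libraries numbered 1 and 2 in each condition were deposited only as 1 pooled value. FPKM gives no depth, so falls in genes near 1 FPKM have an unknown counting error.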
